A study of Homo sapiens with 18 samples.

Results

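The 9 genes described here encode the MHC class I antigen presentation pathway. They are the class I heavy chains HLA-B, HLA-C, HLA-E and HLA-F, the light chain B2M, the peptide transporter subunits TAP1 and TAP2, the loading factor TAPBP and the class I transactivator NLRC5. Each was found by its symbol as 1 row among the 60603 genes of both count tables, using the copy on the primary chromosome, and all 9 are accounted for across all 9 conditions. The other class I heavy chain genes of chromosome 6 were not analysed here.

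MHC class I molecules show peptides from inside the cell to cytotoxic T cells. The proteasome cuts proteins into peptides, TAP1 and TAP2 carry these into the endoplasmic reticulum, and TAPBP (tapasin) helps to load them onto a heavy chain bound to B2M. NLRC5 enters the nucleus and switches on the heavy chain genes, B2M and the genes of processing, together with factors that bind the X and Y boxes of their promoters, and interferon raises the whole pathway. Breast tumours often lower these genes, which hides them from T cells.

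Poly(A) RNA came from MDA-MB-231 cells, a mesenchymal line of basal breast cancer, in 2 overexpression systems with 2 libraries in each condition. The transient system held untreated control cells, cells given 0.6 µM doxorubicin for 48 h, and doxorubicin-treated cells whose label adds transient FLAG-ZMYND8. In the inducible system, MDA-MB-231 cells carried pInducer20 with a GFP or a FLAG-ZMYND8 cDNA, all under 250 ng/mL doxycycline, and were left without doxorubicin or given 0.6 µM for 6 or 48 h. Each construct is represented by 1 selected line, so the construct and the line cannot be told apart, and the labels do not say that replicates came from separate cultures. The study calls the inducible libraries biological replicates without saying what was separate, so p-values measure only the spread between these libraries. ZMYND8 is a chromatin reader, and the design asks how its overexpression and doxorubicin, which damages DNA, alter expression.

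Depth was 5729294 to 24713822 counts in the transient and 18300628 to 23724398 counts in the inducible libraries. ZMYND8 itself stood at 208 to 209 CPM (counts scaled to library size with TMM factors, the unit of every level below) in untreated GFP cells and at 921 to 926 CPM in untreated ZMYND8 cells. In the transient system ZMYND8 was 122 to 181 CPM with doxorubicin and 124 to 159 CPM in the libraries labelled ZMYND8 plus doxorubicin, with a log2 difference of -0.09 ± 0.235 (SE). Below they are called the libraries labelled ZMYND8. The closest transient pair came from different conditions, namely library 2 with doxorubicin and library 2 labelled ZMYND8 (chi-square of 1.39 per degree of freedom, against 9.71 to 55.6 in the other 14 pairs). Whether these are independent samples cannot be told from the labels, and every comparison with the labelled libraries rests on that. VIM, CD44 and KRT18, markers of the line, had condition means of 2150 to 4480, 471 to 1320 and 319 to 760 CPM. ESR1 and PGR, which the line lacks, averaged at most 0.753 CPM in every condition. CDH1, an epithelial marker, was not low throughout. At 48 h it averaged 10.7 CPM in GFP and 20.8 CPM in ZMYND8 cells, against 0.72 and 4.16 CPM untreated. Transient libraries had 0.951 and 1.21 CPM of CDH1 in controls, 1.21 and 7.89 with doxorubicin and 1.68 and 9.47 when labelled ZMYND8.

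Only HLA-B, HLA-C, B2M and NLRC5 were counted at a level that bears comparison. HLA-E received 3 to 21 counts in each inducible library, and HLA-F, TAP1, TAP2 and TAPBP received at most 8. TAP2 was listed at 0 in 6 of 12 inducible and 5 of 6 transient libraries, TAPBP at 0 in 7 of 12 and 5 of 6, and HLA-F at 0 in 5 of 12 and 3 of 6. TAP1 had 3 to 70 counts in the transient libraries and 0 to 3 in the inducible ones. A count of 0 allows up to 3 counts, which is 0.126 to 0.164 CPM in the inducible and 0.121 to 0.524 CPM in the transient libraries, and this covers counting error only.

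The near-absence of these members was shared with genes that every cell uses in the same stretch of chromosome 6. Between 28 and 34 Mb of hg38, RPS18, a protein of the small ribosomal subunit, averaged 0.0196 CPM over the inducible libraries, CSNK2B 0.0779, ABCF1 0.0346 and FLOT1 0.0315 CPM, whereas BAG6 averaged 2.18, DDX39B 1.42 and TUBB 290 CPM. Of 186 protein-coding genes in that window, 31 (16.7%) reached 1 CPM in the inducible and 35 (18.8%) in the transient libraries, against 63.3% and 64.4% of all other protein-coding genes. No gene between 29 and 30 Mb or between 32 and 33 Mb reached 10 CPM in either system. The hg38 assembly carries alternate copies of this region, and featureCounts leaves out reads with several alignments unless told otherwise. Whether the index used by the authors held the alternate copies is not given in the sources used here, and its part in the low counts was not tested. Values at 0 for HLA-E, HLA-F, TAP1, TAP2 and TAPBP are therefore listed values, not levels of expression, and the HLA-B and HLA-C counts hold only the read pairs assigned to those genes alone.

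**Figure D1:**
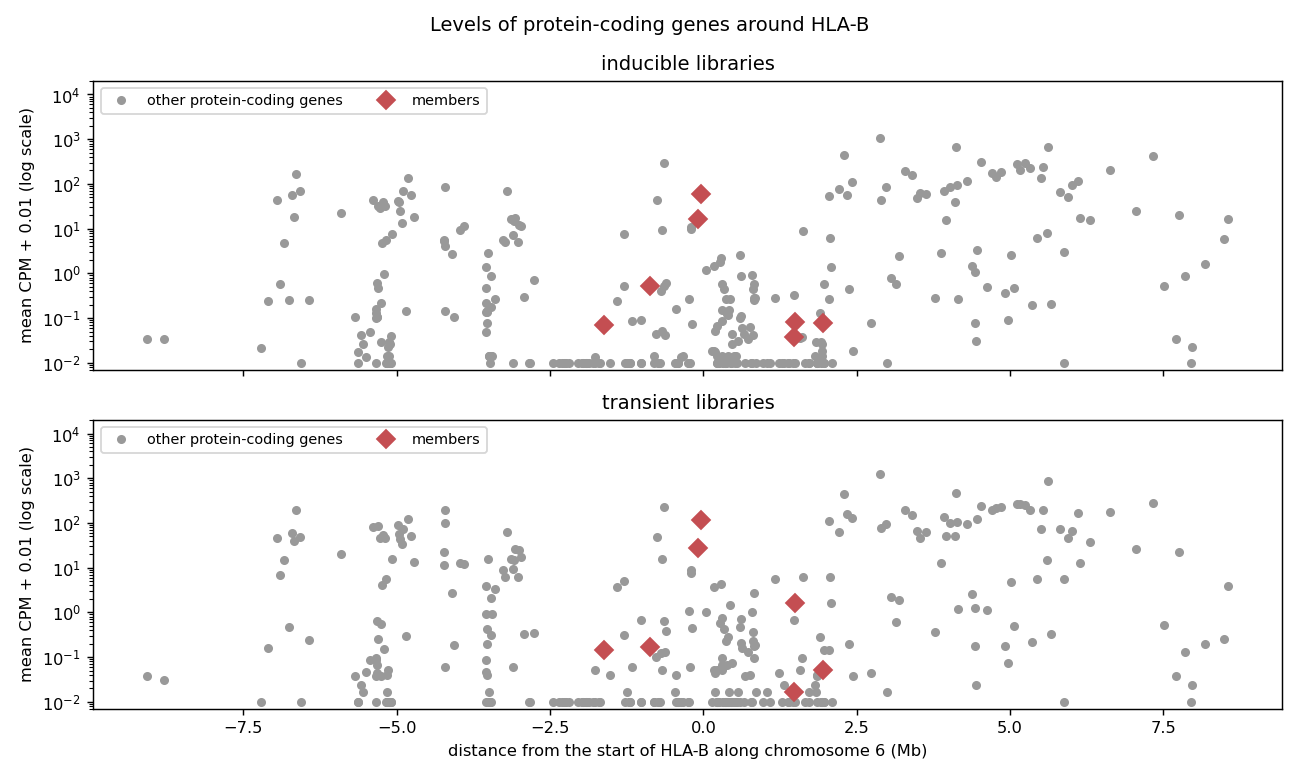
Mean level of each protein-coding gene (CPM + 0.01, log axis) against its distance in Mb from the start of HLA-B on chromosome 6, for the inducible (top) and the transient libraries (bottom). Diamonds mark members, and grey points other genes. HLA-B and HLA-C stand at 59.4 and 16.1 CPM in the inducible panel among many genes at or near 0, while the other 5 members of the chromosome lie under 1 CPM there.

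In the gene models of GENCODE, HLA-B lies on the minus strand of chromosome 6 from 31269491 to 31357188 (hg38, 3051 bases of exon) and reaches into the neighbouring HLA-C, at 31268749 to 31272130 on the same strand (2507 bases). They share 35 exonic bases, where a read cannot be assigned to either, and 17.8% of the HLA-B exons lie under a gene on the other strand, ENSG00000271581, which strand-specific counting keeps apart. B2M (chromosome 15, 44711487 to 44718877, plus strand, 6079 bases) and NLRC5 (chromosome 16, 56989485 to 57083531, plus strand, 12386 bases) overlap no exon of another gene. HLA-E (30489509 to 30494194, plus strand), HLA-F (29722775 to 29738528, plus), TAP1 (32845209 to 32853978, minus), TAP2 (32821833 to 32838770, minus) and TAPBP (33299694 to 33314387, minus) fill the same arm of chromosome 6.

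Per kb of exon, untreated GFP cells had a level of 51.4 CPM per kb for B2M, 24.1 for HLA-B, 7.85 for HLA-C and 3 for NLRC5. In untreated ZMYND8 cells the same levels were 47.3, 8.20, 4.26 and 2.23 CPM per kb. The order of these values was thus the same in both lines, and the gap between B2M and the heavy chains was wider in ZMYND8 cells. HLA-B and HLA-C lie in the stretch of low counts, and B2M and NLRC5 do not. The order between genes may therefore also reflect how many read pairs were assigned, which was not tested.

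HLA-B was lower in ZMYND8 cells than in GFP cells at every time. Untreated GFP cells had 81.4 and 65.9 CPM, against 25.2 and 24.8 CPM in untreated ZMYND8 cells. After 6 h of doxorubicin the values were 66.9 and 66.0 CPM in GFP and 25.2 and 26.9 CPM in ZMYND8 cells. After 48 h they were 112 and 117 CPM in GFP and 43.9 and 40.0 CPM in ZMYND8 cells. The lines did not overlap at any time, and the highest ZMYND8 value, after 48 h, lay below the lowest GFP value. By edgeR (quasi-likelihood test, p-values adjusted by Benjamini-Hochberg over all genes), the log2 difference was -1.56 ± 0.078 (SE, 2.95-fold lower, adjusted p = 1.2e-15) without doxorubicin, -1.35 ± 0.079 (2.55-fold, adjusted p = 4.3e-14) at 6 h and -1.45 ± 0.067 (2.73-fold, adjusted p = 2.9e-16) at 48 h. Of the 18801 genes tested, 12.7% differed at least this much between the untreated lines in either direction. Leaving out 1 library at a time kept the differences between -1.70 and -1.30.

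HLA-B also rose with 48 h of doxorubicin in both inducible lines. The rise was 0.64 ± 0.064 on the log2 scale in GFP cells (1.56-fold, adjusted p = 1.8e-09) and 0.75 ± 0.081 in ZMYND8 cells (1.68-fold, adjusted p = 8.1e-09). The difference between these rises, tested as an interaction, was 0.11 (95% interval -0.10 to 0.33, adjusted p = 0.48 by edgeR). After 6 h the change was -0.15 in GFP cells (adjusted p = 0.077) and 0.06 in ZMYND8 cells (adjusted p = 0.64), neither past the threshold. The GFP value at 6 h depended on 1 library: it was 0.01 without the first and -0.29 (adjusted p = 9.2e-04) without the second untreated GFP library.

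HLA-C, the other counted heavy chain, followed the same order between lines with a smaller difference. Untreated GFP cells had 18.8 and 20.6 CPM, against 10.6 and 10.8 CPM in ZMYND8 cells. At 6 h the values were 17.6 and 21.2 CPM against 10.9 and 10.4 CPM, and at 48 h they were 24.0 and 19.2 CPM against 12.4 and 15.2 CPM. Every GFP library lay above every ZMYND8 library. The log2 difference was -0.88 ± 0.123 (1.84-fold lower, adjusted p = 6.3e-07), -0.86 ± 0.124 (adjusted p = 1.1e-06) and -0.65 ± 0.112 (adjusted p = 1.6e-05) at the respective times, by edgeR's test. With 48 h of doxorubicin HLA-C rose by 0.37 ± 0.125 in ZMYND8 cells (adjusted p = 0.013). It differed by 0.14 ± 0.11 in GFP cells (adjusted p = 0.29), where the libraries overlapped, and 0.38 (adjusted p = 0.004) with total counts. The interaction was 0.23 (adjusted p = 0.34). The rise in ZMYND8 cells lost its call without the second 48 h library (0.21, adjusted p = 0.23), without the first or the second untreated ZMYND8 library (0.33 and 0.37, adjusted p = 0.059 and 0.053) and in DESeq2 (0.39, adjusted p = 0.058).

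**Figure D2:**
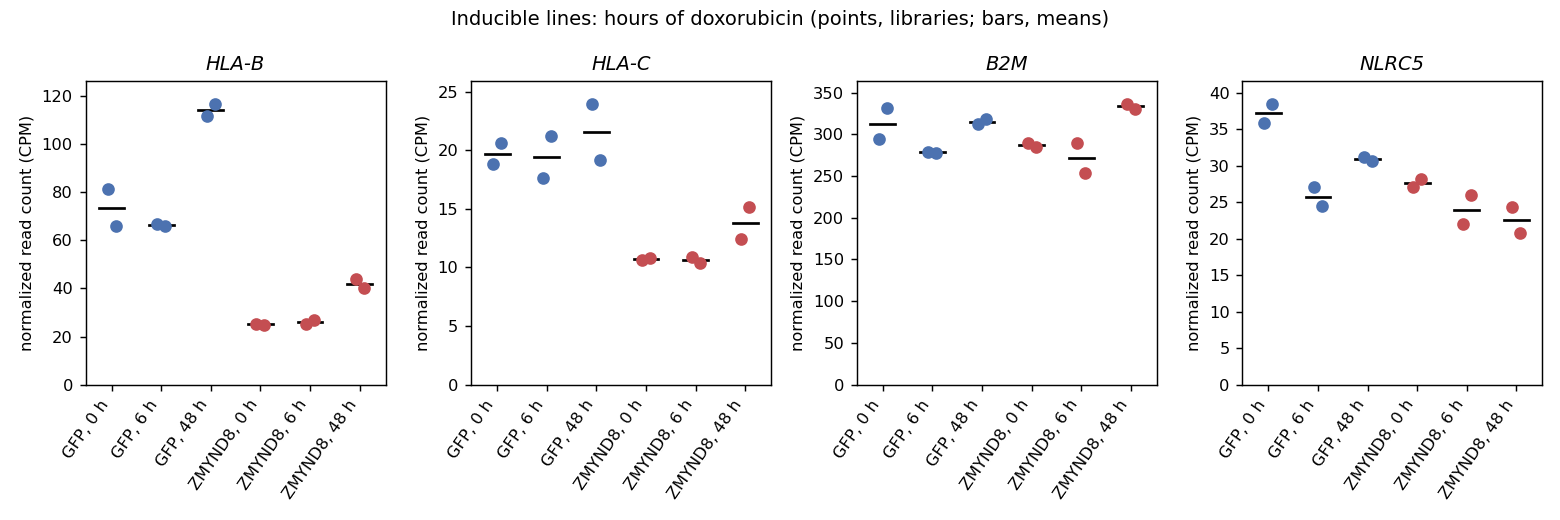
Normalized read count (CPM, axes from 0) of HLA-B, HLA-C, B2M and NLRC5 in the 12 inducible libraries, by construct and hours of doxorubicin. Points are libraries (blue, GFP; red, ZMYND8) and bars are means of 2. HLA-B lies at 65.9 to 117 CPM in GFP and at 24.8 to 43.9 CPM in ZMYND8 cells, while B2M stays between 254 and 337 CPM in all of them.

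The stretch just before the start of the gene is shown for both heavy chains and B2M. HLA-B and HLA-C were both lower in the inducible ZMYND8 line, while B2M barely differed. Whether these sequences bear on that difference was not tested. The sequences are the 250 bases upstream of the RefSeq start (GRCh38.p14), 5′ to 3′ on the strand of the gene: HLA-B at chr6:31357180-31357429 (minus), HLA-C at chr6:31272093-31272342 (minus) and B2M at chr15:44711267-44711516 (plus). Capitals mark matches on either strand to CCAAT (the Y box), TGACG (core of a cAMP response element, as in the X box) and TTTCNNTTC or TTTCNNTTT (spacings of an interferon response element, which can overlap each other).
HLA-B: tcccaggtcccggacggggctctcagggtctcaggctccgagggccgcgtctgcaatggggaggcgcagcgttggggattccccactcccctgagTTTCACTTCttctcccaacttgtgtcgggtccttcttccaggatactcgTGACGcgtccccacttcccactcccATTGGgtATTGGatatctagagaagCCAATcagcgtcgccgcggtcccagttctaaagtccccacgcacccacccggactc
HLA-C: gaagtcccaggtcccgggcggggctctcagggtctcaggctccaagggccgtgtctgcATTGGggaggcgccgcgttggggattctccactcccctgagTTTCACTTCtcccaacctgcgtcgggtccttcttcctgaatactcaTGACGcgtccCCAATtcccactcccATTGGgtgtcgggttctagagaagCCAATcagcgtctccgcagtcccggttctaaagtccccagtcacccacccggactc
B2M: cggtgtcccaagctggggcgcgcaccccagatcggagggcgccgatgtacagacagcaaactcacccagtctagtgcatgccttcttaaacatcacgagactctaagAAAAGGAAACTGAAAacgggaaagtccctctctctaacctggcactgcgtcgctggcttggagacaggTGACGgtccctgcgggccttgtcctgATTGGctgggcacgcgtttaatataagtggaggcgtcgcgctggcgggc

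RefSeq windows were found for 7 of the 9 members, all but HLA-E and NLRC5. Of the windows not shown, that of HLA-F and 1 of the 2 for TAP1 held CCAAT but no TGACG. The other TAP1 window matched none of the 4 motifs. TAP2 held TGACG but no CCAAT, and TAPBP held neither. Each of these genes held a match to TTTCNNTTC or TTTCNNTTT. Aligned end to end, the HLA-B and HLA-C windows were identical at 226 of 254 columns (89.0%), against 50.9% for HLA-B and B2M. HLA-B held 3 matches to CCAAT and HLA-C 4, with the nearest to the start ending at 52 bases upstream in both, and B2M held 1, ending at 45 bases. Each of them held 1 match to TGACG, at 106 to 102 bases upstream in HLA-B, 105 to 101 in HLA-C and 75 to 71 in B2M. TTTCNNTTC was matched in HLA-B and HLA-C, at 155 to 147 and 151 to 143 bases upstream, and the other one in B2M by a pair of matches that overlap, at 143 to 135 and 137 to 129. CCAAT occurred in 32.0% of all 35116 RefSeq windows of the same length, TGACG in 21.2%, TTTCNNTTC in 6.56% and TTTCNNTTT in 9.20%. The letters were chosen after these sequences were seen, so the shares do not measure how unusual the matches are. A match is a description of these letters and not of binding.

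B2M, the light chain that every class I heavy chain needs, differed little between lines or with doxorubicin. In GFP cells it had 294 and 332 CPM untreated, 279 and 278 CPM at 6 h and 312 and 318 CPM at 48 h. In ZMYND8 cells it had 290 and 285 CPM untreated, 290 and 254 CPM at 6 h and 337 and 331 CPM at 48 h. The largest of its called log2 changes was the rise of 0.22 ± 0.052 with 48 h of doxorubicin in ZMYND8 cells (1.16-fold, adjusted p = 6.8e-04 by edgeR), which held its call without each library in turn. In GFP cells the 48 h change was 0.01 (95% interval -0.09 to 0.12), which with total counts was 0.26 (adjusted p = 8.4e-05). The difference between the lines' changes was 0.20 ± 0.073 (adjusted p = 0.036 by edgeR), a call that was lost in 9 of 15 alternative settings, 6 of which left out 1 library. B2M fell by 0.17 at 6 h in GFP cells (adjusted p = 0.0099), and this was -0.07 (adjusted p = 0.37) without the second untreated GFP library. Its difference between untreated lines, -0.12 (adjusted p = 0.047), was likewise -0.03 (adjusted p = 0.71) without that library.

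NLRC5, the transactivator of the pathway, was lower with doxorubicin in both lines, at 48 h in the direction opposite to HLA-B. GFP cells had 35.8 and 38.5 CPM untreated, 27.0 and 24.5 CPM at 6 h and 31.2 and 30.6 CPM at 48 h. ZMYND8 cells had 27.0 and 28.2 CPM untreated, 22.0 and 25.9 CPM at 6 h and 24.3 and 20.8 CPM at 48 h. The untreated libraries were the highest of their line in both. In GFP cells NLRC5 fell by 0.53 on the log2 scale at 6 h (SE 0.087, adjusted p = 1.1e-05) and by 0.27 at 48 h (SE 0.083, adjusted p = 0.0068), by edgeR's test. In ZMYND8 cells it fell by 0.29 at 48 h (SE 0.088, adjusted p = 0.0059), and at 6 h its change of -0.21 did not pass (adjusted p = 0.066). Neither interaction passed (0.32, adjusted p = 0.097 at 6 h, and -0.02, adjusted p = 0.92 at 48 h).

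Between lines NLRC5 was lower in ZMYND8 cells untreated (log2 difference -0.43 ± 0.086, adjusted p = 1.0e-04) and at 48 h (-0.45 ± 0.086, adjusted p = 5.4e-05), but at 6 h the libraries overlapped (-0.11, adjusted p = 0.33), by edgeR's test. The fall with 48 h of doxorubicin depended on the scaling. With total counts in place of TMM factors it was -0.02 in GFP cells (adjusted p = 0.83) and -0.09 in ZMYND8 cells (adjusted p = 0.40), while the median change of all genes moved from 0.03 to 0.27 and from 0.05 to 0.25. Under the same scaling HLA-B rose by 0.88 and 0.95, so that both members kept about the same distance from that median. The fall at 48 h also lost its call in DESeq2 (adjusted p = 0.12 in GFP and 0.063 in ZMYND8 cells), without the second untreated GFP library (-0.22, adjusted p = 0.063) and without the second 48 h ZMYND8 library (-0.19, adjusted p = 0.11).

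HLA-E was the only other member tested in the inducible system, with counts of 11 and 3 in untreated GFP cells, 13 and 12 at 6 h and 17 and 21 at 48 h. In ZMYND8 cells the counts were 3 and 6 untreated, 14 and 7 at 6 h and 7 and 12 at 48 h. No comparison of HLA-E passed the threshold by edgeR, and its 48 h difference in GFP cells was 1.17 (95% interval 0.05 to 2.29, unadjusted p = 0.042, adjusted p = 0.063). It passed with total counts (1.41, adjusted p = 0.025), with only the conditions compared (1.19, adjusted p = 0.041) and without the first untreated GFP library (2.32, adjusted p = 0.017), and it was 0.54 (adjusted p = 0.47) without the second.

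Of the 5 members tested, 4 were lower in ZMYND8 cells than in GFP cells without doxorubicin and none was higher, where 58.3% of all genes tested were called in either direction and 29.5% as lower. At 6 h 2 were lower (55.5% of all genes called, 26.6% as lower) and at 48 h 3 (60.0% called, 31.6% as lower). The median log2 difference of the members was -0.70, -0.31 and -0.65, against 0.00, 0.00 and -0.04 over all genes. Without doxorubicin and at 6 h this median was the value of HLA-E, a member of few counts. HLA-E was not called there (adjusted p = 0.41 and 0.66 by edgeR), so these medians describe no shared shift. With 48 h of doxorubicin 1 member rose and 1 fell in GFP cells (64.2% of genes called), and 3 rose and 1 fell in ZMYND8 cells (62.3%). At 6 h 2 fell in GFP cells (47.9%). In ZMYND8 cells none of 5 was called at 6 h by edgeR (40.8% of genes called). There 1 member had an unadjusted p under 0.05 by edgeR (8896 of 18801 genes) and 0 were called by DESeq2 (5826 genes). The interaction called 1 member at 48 h (28.6%) and 0 at 6 h (13.4%). At 6 h 1 member had an unadjusted p under 0.05 by edgeR (4821 genes) and 0 were called by DESeq2 (1517 genes). These shares are high, so the counts of members add little beside the sizes of their changes.

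The study's own criterion combines an unadjusted p no higher than 0.05 with a minimum log2 change, which is 1 for transient and 1.5 for inducible libraries. It was met by HLA-B between the untreated lines, where 11.4% of all genes met it. In the transient system HLA-C met it in the labelled libraries against control (9.84% of genes). No member met it with 6 or 48 h of doxorubicin in GFP cells (4.71% and 13.2% of genes) or in ZMYND8 cells (2.73% and 12.4%), between the lines at 6 or 48 h (10.6% and 9.44%), or in the interaction at 6 or 48 h (2.01% and 3.70%). None met it with transient doxorubicin (8.70%) or between the labelled and the doxorubicin libraries (0.159%).

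**Figure D3:**
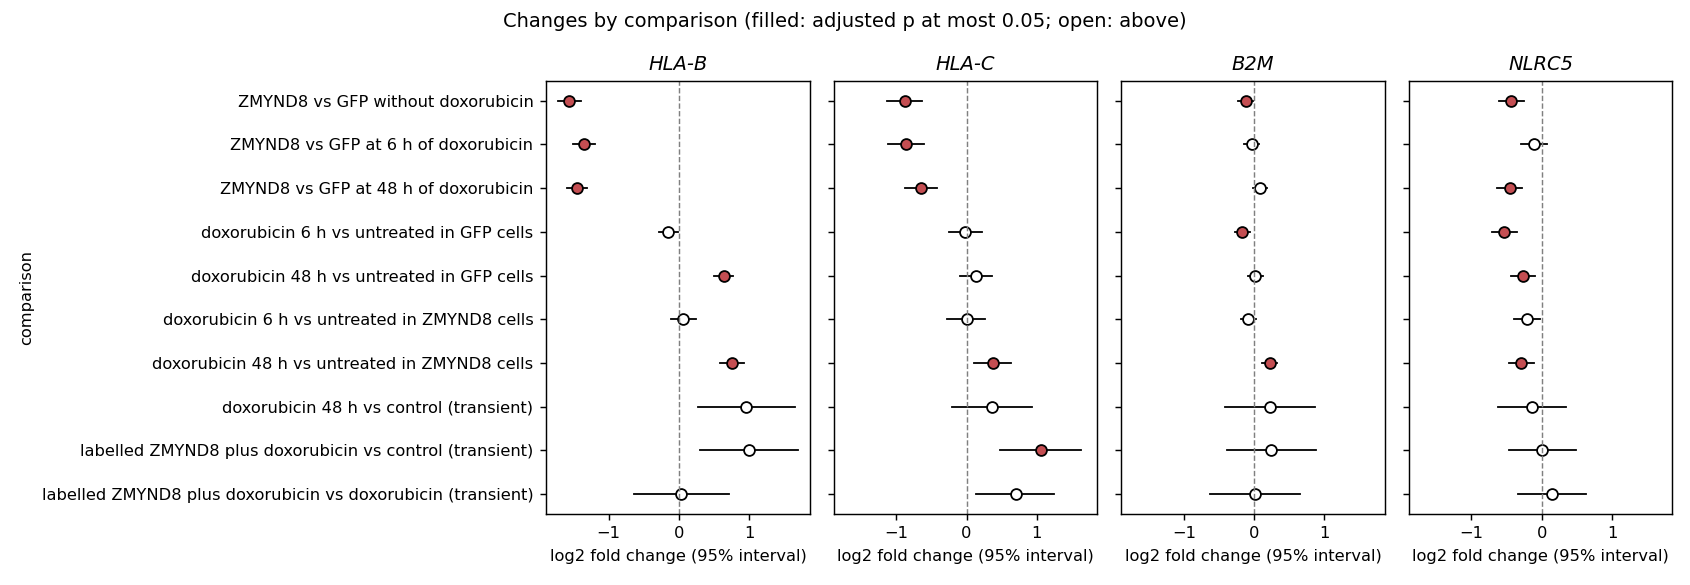
Log2 fold change with its 95% interval for HLA-B, HLA-C, B2M and NLRC5 (panels) in 10 comparisons (rows). Filled points had an adjusted p of at most 0.05 by edgeR and open points did not. HLA-B lies between -1.56 and -1.35 in the 3 comparisons of ZMYND8 with GFP, and B2M stays between -0.17 and 0.24 in all 10.

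In the transient system HLA-B was higher in all 4 doxorubicin-treated libraries than in both controls, with a wide spread. The control libraries had 81.6 and 59.6 CPM, the doxorubicin libraries 87.4 and 185 CPM, and the libraries labelled ZMYND8 plus doxorubicin 131 and 150 CPM. The log2 difference from control was 0.96 ± 0.314 with doxorubicin (adjusted p = 0.10) and 0.99 ± 0.315 in the labelled libraries (adjusted p = 0.082), neither past the threshold by edgeR. With the replicate number as a block, both passed (0.89 and 0.97, adjusted p = 0.041 and 0.025), as they did in DESeq2 (0.94 and 0.98, adjusted p = 0.045 and 0.03). The second doxorubicin library set much of the first value, which was 0.31 (adjusted p = 0.74) without it and 1.39 (adjusted p = 0.017) without the first. Without the second labelled library, the other of the closest pair, the labelled difference was 0.87 (adjusted p = 0.27), and over its 11 alternative settings it passed in 5, with adjusted p from 0.002 to 0.27.

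HLA-C had 22.3 and 15.4 CPM in the controls, 22.5 and 25.6 CPM with doxorubicin and 44.8 and 33.5 CPM in the labelled libraries. The labelled libraries were the highest, and HLA-C was the 1 member called there (1.06 ± 0.261 against control, 2.08-fold, adjusted p = 0.036 by edgeR, in a comparison that called 6.82% of all genes). The call was lost without the second control (0.81, adjusted p = 0.13) and without the first or the second labelled library (0.83 and 1.24, adjusted p = 0.23 and 0.07). Against doxorubicin alone the labelled libraries differed in HLA-C by 0.70 (95% interval 0.14 to 1.25), with an unadjusted p of 0.018 by edgeR. That comparison called 0 of 15697 genes (0.00%) by edgeR and 0 by DESeq2, with 54 genes, HLA-C the 1 member among them, at an unadjusted p under 0.05.

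B2M ranged over 241 and 226 CPM in controls, 193 and 352 CPM with doxorubicin and 221 and 330 CPM in the labelled libraries, so that the conditions overlapped. NLRC5 was 69.4 and 83.1 CPM in controls, 57.8 and 79.9 CPM with doxorubicin and 73.3 and 80.2 CPM in the labelled libraries, again with overlap. TAP1, tested in this system only, had 9 and 3 counts in controls, 6 and 70 with doxorubicin and 11 and 10 in the labelled libraries, with the 70 counts in the library of greatest depth. With doxorubicin alone 0 of 5 members were called by edgeR (5.13% of all genes called). HLA-B was the 1 member at an unadjusted p under 0.05 by edgeR (3483 of 15697 genes) and the 1 called by DESeq2 (1119 genes). HLA-E, HLA-F, TAP2 and TAPBP had at most 11, 3, 1 and 6 counts in any transient library.

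**Figure D4:**
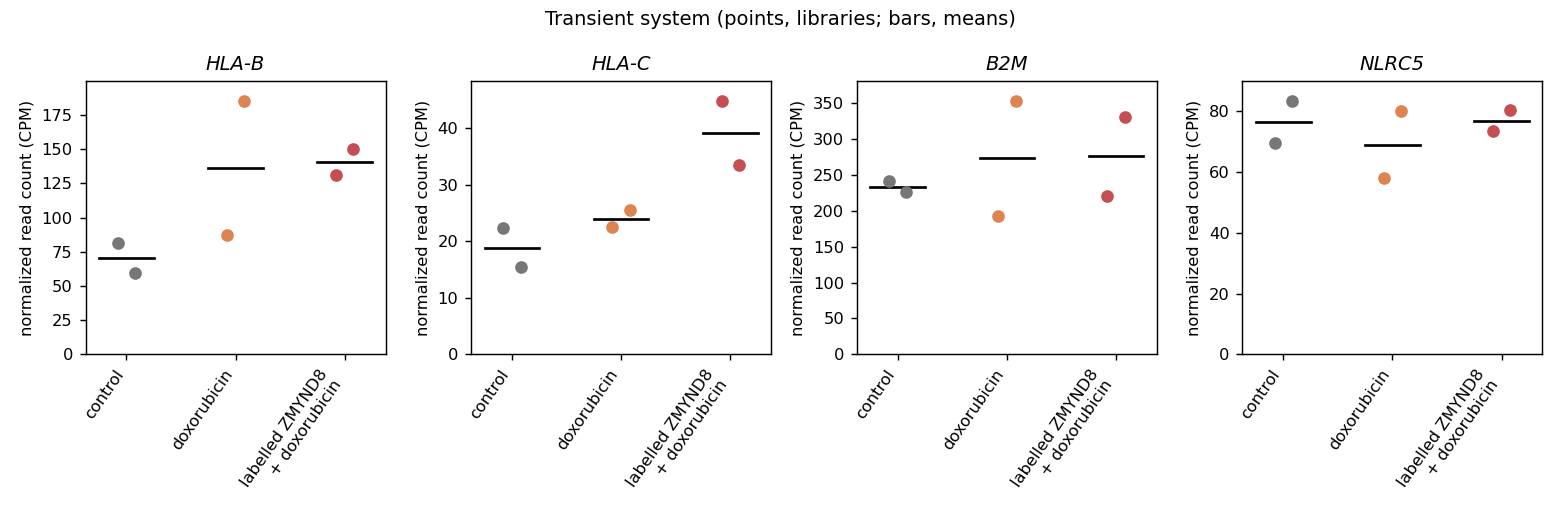
Normalized read count (CPM, axes from 0) of HLA-B, HLA-C, B2M and NLRC5 in the 6 transient libraries. Points are libraries and bars are means of 2. HLA-B with doxorubicin spans 87.4 to 185 CPM, and HLA-C is highest in the labelled libraries, at 33.5 and 44.8 CPM.

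Most other genes of the pathway outside the near-empty stretch were counted, with exceptions such as IRF9 (0.151 to 1.18 CPM in the inducible conditions) and CD1D (at most 0.0867 CPM). Of the immunoproteasome and its activator, 3 of 4 tested genes were lower in untreated ZMYND8 than in untreated GFP cells and none was higher, where 58.3% of all genes were called and 29.5% were lower. PSMB10, a catalytic subunit, differed by -1.61 ± 0.093 (log2, adjusted p = 2.5e-14 by edgeR), with mean levels of 9.66 and 29.3 CPM. The activator subunits PSME1 and PSME2 differed by -0.64 and -0.39 (adjusted p = 4.2e-12 and 4.9e-08). Of the activator genes, PSME2 rose with 48 h of doxorubicin in both lines (0.93 in GFP and 0.66 in ZMYND8 cells, adjusted p = 2.1e-16 and 1.0e-12), while PSME1 fell by 0.23 in both. PSMB8 and PSMB9, which lie beside TAP1 and TAP2, shared their low counts, with means of at most 0.995 CPM for PSMB8 and 0 for PSMB9 in every condition. The constitutive subunits PSMB5, PSMB6 and PSMB7, which the immunoproteasome exchanges, were called in both directions between untreated lines (PSMB7 0.31, PSMB5 -0.27).

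All 6 genes of peptide trimming and loading were lower in untreated ZMYND8 cells, against 29.5% of all genes. TAPBPL, a peptide editor related to tapasin, differed by -1.35 ± 0.199 (adjusted p = 1.6e-06 by edgeR), the trimming peptidases ERAP2 and ERAP1 by -0.99 and -0.67 (adjusted p = 2.7e-09 and 7.8e-13) and the oxidoreductase PDIA3 by -0.55 (adjusted p = 2.9e-11). With 48 h of doxorubicin 5 of 6 fell in GFP cells (64.2% of all genes called in either direction), among them PDIA3 by 0.75 and the chaperone CALR by 0.70 (adjusted p = 3.4e-14 and 7.2e-15). In ZMYND8 cells 3 fell and TAPBPL rose by 0.83 (adjusted p = 9.3e-04). At 48 h 3 of the 6 interactions passed, against 28.6% of all genes, and all 3 were positive (TAPBPL 1.06, ERAP2 0.85 and ERAP1 0.42, adjusted p = 0.0037, 4.0e-05 and 1.0e-05). Among class I-like proteins that also bind B2M, the iron regulator HFE and the IgG receptor FCGRT were lower in untreated ZMYND8 cells (-1.42 and -2.15, adjusted p = 2.5e-15 and 3.5e-17) and MR1 was not called, while CD1D was not tested.

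The regulators moved in both directions. Of 13, 4 were higher and 4 lower in untreated ZMYND8 cells, with a median of -0.07, where 58.3% of all genes were called. IRF1, which binds the interferon response element of class I promoters, was lower (-0.75 ± 0.048, adjusted p = 2.6e-13 by edgeR, 59.1 against 99.5 CPM), and the Y box factor subunit NFYB and the X box factor subunit RFXAP were higher (0.55 and 0.56, adjusted p = 9.9e-08 and 0.0021). With 48 h of doxorubicin 5 rose and 4 fell in GFP cells, where 64.2% of all genes were called. RFXAP (1.03 ± 0.142, adjusted p = 4.5e-07) and the interferon signal transducer STAT2 (0.85 ± 0.049, adjusted p = 1.9e-14) led the rises. In ZMYND8 cells 7 rose and 3 fell (62.3% of all genes called), with STAT2 up by 1.18 and IRF1 up by 0.72 (adjusted p = 1.8e-17 and 4.6e-13). IRF1 differed by -0.08 in GFP cells (adjusted p = 0.12), and its interaction was 0.80 ± 0.066 (adjusted p = 4.7e-10). All 3 Polycomb genes, which encode a complex that methylates histone H3, were higher in untreated ZMYND8 cells, where 58.3% of all genes were called, EZH2 by 0.80 ± 0.055 (adjusted p = 1.1e-12). All 3 also rose with 48 h of doxorubicin in GFP and ZMYND8 cells (medians 0.83 and 0.52, with 64.2% and 62.3% of all genes called). Between the lines at 48 h 1 of 3 was higher (median 0, 60.0% of all genes called). All 3 interactions at 48 h were called and negative (28.6% of all genes called).

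The class II transactivator CIITA, a relative of NLRC5, and the class II invariant chain CD74 were also lower in ZMYND8 cells. In untreated ZMYND8 cells CIITA was lower by a log2 difference of -1.67 ± 0.106 (9.83 against 31 CPM, adjusted p = 1.7e-13 by edgeR) and CD74 by -2.33 ± 0.056 (93.3 against 470 CPM, adjusted p = 1.9e-22). At 6 and 48 h the CIITA difference was -0.85 and -1.01 (adjusted p = 6.0e-06 and 7.7e-09), and that of CD74 -2 and -2.14 (adjusted p = 5.9e-21 and 1.0e-21). With 6 h of doxorubicin CIITA fell by 1.70 in GFP cells (adjusted p = 3.6e-13), with NLRC5 down at the same time. The 6 class II genes of chromosome 6 on the list were not tested and averaged at most 0.163 CPM. Of the interferons, their receptors and kinases, 5 of 8 tested genes were lower in untreated ZMYND8 cells (29.5% of all genes lower). Among them were IFNGR2 and IFNGR1 (-0.79 and -0.69, adjusted p = 1.9e-04 and 9.7e-12), while 2 of the 8 were higher (58.3% of all genes called in either direction). One of the 2 was IFNL1, at 0.8 CPM in untreated ZMYND8 cells and 0 and 0.101 CPM in the untreated GFP libraries. The GFP values lay under the limit of 3 counts, so no fold is given. After 48 h of doxorubicin IFNL1 averaged 7.22 CPM in ZMYND8 and 0.711 CPM in GFP cells. Of the 5 interferon-stimulated genes, 4 were higher in untreated ZMYND8 cells, opposite in direction to HLA-B, where 58.3% of all genes were called in either direction. ISG15 was higher by 1.83 (adjusted p = 4.0e-22), and MX1 was lower (-1.26, adjusted p = 1.5e-15). All 5 rose with 48 h of doxorubicin in both lines, as HLA-B did, where 64.2% of all genes were called in GFP and 62.3% in ZMYND8 cells. Of the NKG2D ligands, stress-induced relatives of class I seen by natural killer cells, ULBP2 and ULBP3 rose with 48 h of doxorubicin in both lines (0.92 and 0.54 in GFP cells, adjusted p = 9.0e-11 and 7.3e-05).

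**Figure D5:**
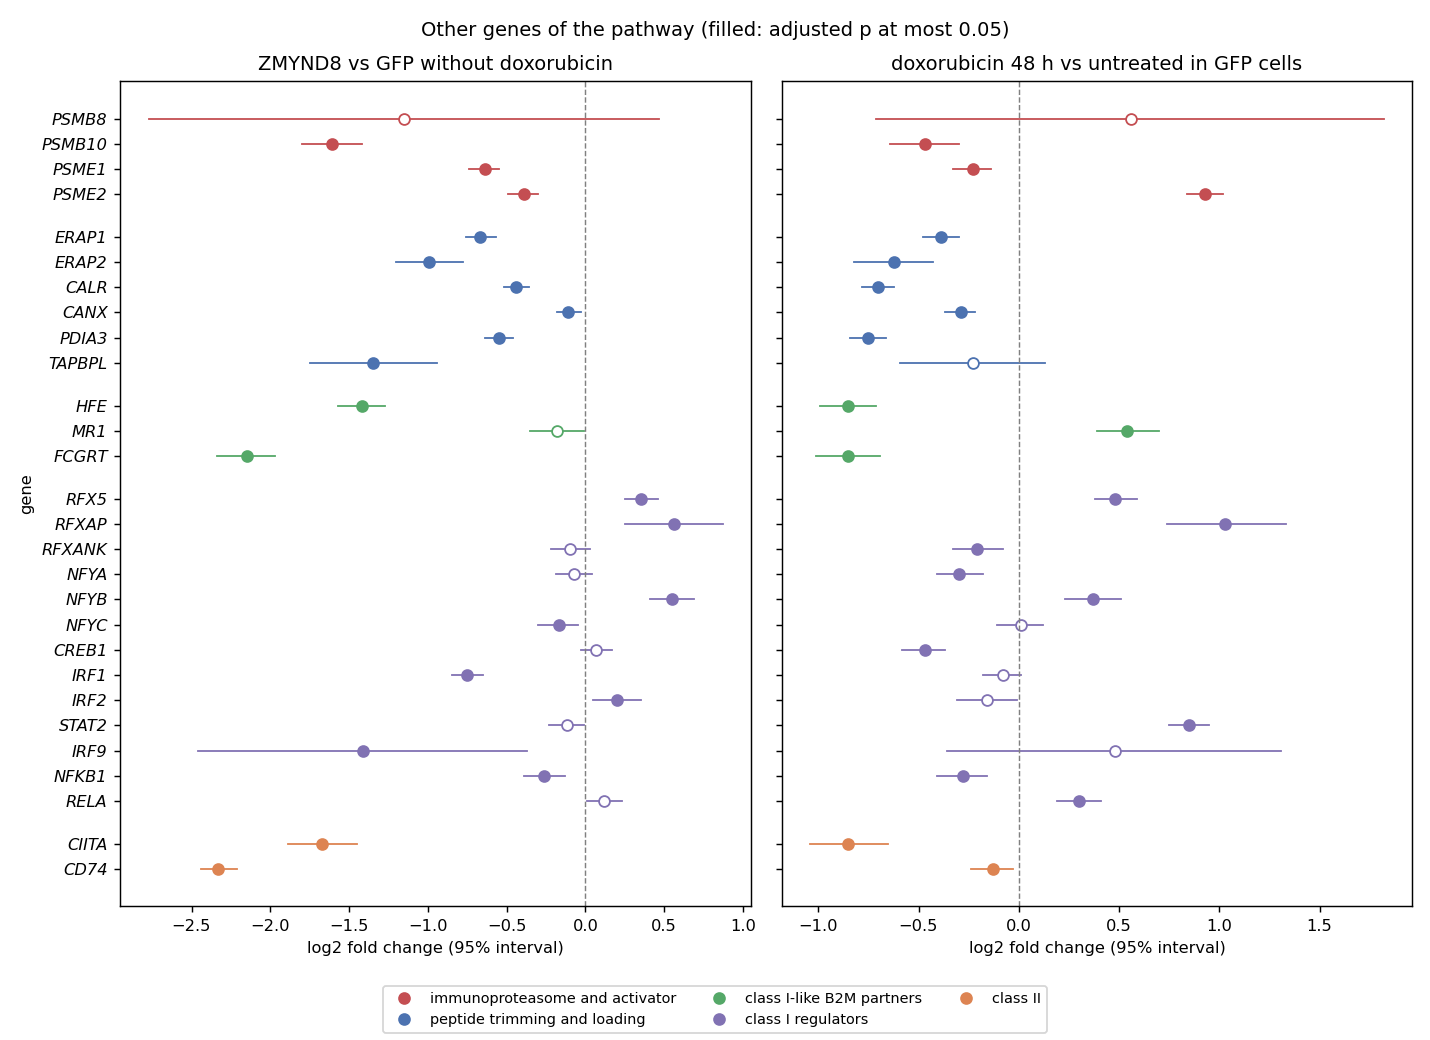
Log2 fold change with its 95% interval for other genes of the pathway (rows, coloured by group) between untreated ZMYND8 and GFP cells (left) and with 48 h of doxorubicin in GFP cells (right). Filled points had an adjusted p of at most 0.05. All 6 genes of peptide trimming and loading lie left of 0 in the left panel, while RFXAP reaches 1.03 in the right one.

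Markers of other cells were also unequal between the lines. The summed level of 4 leukocyte markers was 15.1 to 21.7 CPM in the GFP libraries and 2.45 to 6.16 CPM in the ZMYND8 libraries. CD14 made up most of it in untreated cells (means of 19.0 CPM in GFP and 2.18 CPM in ZMYND8 cells), while at 48 h ZMYND8 cells averaged 3.05 CPM of CD14, 2.03 of PTPRC and 0.71 of ITGAM. With 48 h of doxorubicin, when HLA-B also rose, all 3 tested leukocyte markers rose in ZMYND8 cells (median 1.67, with 62.3% of all genes called). In GFP cells 1 of 3 rose (64.2% of all genes called), PTPRC from 0.496 to 3.66 CPM. In the transient controls the leukocyte sum was 2.66 to 3.29 CPM, with HLA-B at a mean of 70.6 CPM. Of these markers, CD14 and PTPRC were called lower in untreated ZMYND8 cells (2 of 3 tested, against 29.5% of all genes), while CD3E averaged at most 0.28 CPM in every condition. Of the endothelial markers, PECAM1 was lower in untreated ZMYND8 cells (log2 difference -2.07, adjusted p = 5.4e-08 by edgeR) and CDH5 averaged at most 0.262 CPM. The labels name only the breast cancer line and no other cell type. In these bulk libraries fewer cells of a type and less RNA per cell cannot be told apart. The part of these markers in the differences of HLA-B and HLA-C between lines or with doxorubicin was not tested.

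The 5 genes outside the MHC window whose log2 CPM over the 12 inducible libraries was most like the mean of the 5 tested members were TMEM45B, CLU, MMP15, ARHGEF19 and ORMDL3, with Pearson's r of 0.979, 0.976, 0.974, 0.973 and 0.973. Over the 6 transient libraries the same genes had r of 0.428, 0.337, 0.867, 0.625 and 0.534. The member mean was itself closest to HLA-B (r = 0.977) and HLA-C (0.926), with HLA-E at 0.679, NLRC5 at 0.45 and B2M at 0.302. The points are libraries of 6 conditions that share their line and time, so these values are given as a description. CLU, a secreted chaperone, had means of 128, 126 and 238 CPM in GFP cells and 49.8, 57.4 and 87.3 CPM in ZMYND8 cells at 0, 6 and 48 h.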

How the data were processed

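Poly(A) RNA-seq of 18 libraries was used, 2 per condition. The authors deposited unnormalized counts, with read pairs assigned to GENCODE release 31 exons by featureCounts 1.6.4 (reverse-stranded), as the headers state. The study's methods name TopHat on hg38, while the submitters' processing notes name Trim Galore and HISAT2, so the aligner is uncertain. Replicates were not pooled, and no column was left unused. Groups were taken from the sample titles.

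Each system was fitted separately in edgeR 4.0.16 (R 4.3.3, limma 3.58.1) with TMM factors, edgeR's filter by expression (15697 and 18801 genes), 1 mean per condition and the quasi-likelihood test. P-values were adjusted by the Benjamini-Hochberg method over all genes tested, and a gene was called at an adjusted p of at most 0.05. Of the members, 5 passed the filter in each system. In the comparison of 2 with 2 libraries, an exact permutation test cannot go below p = 0.333. The scripts were tested on simulated data. Depth limits precision, and intervals of counts cover counting error only.

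Members and gene lists were chosen with earlier results of these data known. All 9 members were named in each comparison, with at most 4 called genes of each other list, those with the largest change. ZMYND8 was the check of the labels. The pathway lists were immunoproteasome and activator, constitutive subunits, trimming and loading, class I regulators, Polycomb, class I-like proteins, NKG2D ligands, interferon signalling, class II and interferon-stimulated genes, besides marker lists, and 1 gene of the regulators and 1 leukocyte marker are not reported here. The 5 most similar genes had an average log2 CPM of at least 1. Motif letters were chosen after the sequences were seen. Sequences came from RefSeq (GRCh38.p14), read by gene symbol, and were aligned with Biopython 1.88. The alternatives were DESeq2 1.42.0, other scalings and filters, a replicate block, fits on the conditions compared and leaving out each library. The study's criterion (an unadjusted p and a minimum fold change) was also counted.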

Additional observations from a re-analysis of the deposited data

Results flagged for a closer look

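The change of B2M with 48 h of doxorubicin differed between the lines, by a test of the difference itself (interaction 0.20 ± 0.073 on the log2 scale, adjusted p = 0.036 by edgeR, where 28.6% of all genes passed). B2M rose by 0.22 in ZMYND8 cells, where both 48 h libraries lay above both untreated ones, and differed by 0.01 in GFP cells, where they overlapped. The interaction was between 0.11 and 0.29 without each library in turn. It lost its call without either 48 h GFP library, either untreated ZMYND8 library, the second untreated GFP library (0.11, adjusted p = 0.32) or the first 48 h ZMYND8 library, and was not called with DESeq2 size factors (0.19, adjusted p = 0.061), with total counts (0.16, adjusted p = 0.096) or in DESeq2 (0.18, adjusted p = 0.082). The cause was not tested.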

How the results depend on the processing

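Results that changed were mostly small or rested on few libraries. Of 560 alternative values of the log2 fold changes of HLA-B, HLA-C, B2M and NLRC5, 456 kept their direction and their side of the threshold, 33 lost the call, 23 gained one and 48 changed sign, all of the last from a value that was not called. The lower HLA-B and HLA-C of ZMYND8 cells at all 3 times and the rise of HLA-B at 48 h in both lines kept their calls in 11 of 11 settings each. B2M between untreated lines lost its call in 8 of 11 settings. Where 1 library was left out, its arm held 1 sample, which was assumed to vary like the other groups. The cause of these changes was not tested. In the transient system, libraries of 1 condition differed more (chi-square of 10.7 to 22.7 per degree of freedom) than in the inducible system (2.19 to 5.21), and B2M with 1118 to 9270 counts had an SE of 0.29. Few counts limit HLA-E, HLA-F, TAP1, TAP2 and TAPBP, which lie in a stretch of chromosome 6 with few counted genes. There 16.7% of protein-coding genes reached 1 CPM in the inducible libraries, against 63.3% of all others. With total counts, HLA-C and B2M gained calls in GFP cells at 48 h (0.38 and 0.26).

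Leaving out 1 library at a time changed the number of members called with doxorubicin in both systems and for both interactions. It also did so for labelled ZMYND8 against control. Such fits leave 1 sample in a condition, and the shares of all genes called in them are not given here, so no counts are listed. For transient doxorubicin the number of members called was 1 in DESeq2 (1119 genes called in all). It was also 1 with no filter and with the replicate block (main 0, 5.13% of all genes). For labelled ZMYND8 against control it was 2 with total counts (911 genes called higher and 324 lower) and DESeq2 (1393 genes). It was also 2 with no filter, the replicate block and only the conditions compared (main 1, 6.82% of all genes). With total counts it was 4 in GFP cells at 48 h (8503 of 18801 genes called higher and 3987 lower). It was 2 in ZMYND8 cells at 6 h (3003 higher and 4568 lower) and 0 for the 48 h interaction (2058 and 3406). In DESeq2 it was 1 in GFP cells at 48 h (9684 genes called) and 2 in ZMYND8 cells at 48 h (9244 genes). It was 0 for the 48 h interaction (3706 genes), which was also 0 with DESeq2 size factors (2235 higher and 3161 lower). With at least 10 counts in every library it was 1 in ZMYND8 cells at 6 h. The shares of all genes called with the other filters, the replicate block and only the conditions compared are not given here. By the study's criterion it was 1 between untreated lines and 0 in GFP cells at 6 and 48 h, in ZMYND8 cells at 48 h, between lines at 6 and 48 h and for the 48 h interaction. Total counts moved the median change of all genes from 0.00 to 0.15 for transient doxorubicin and to 0.14 for labelled ZMYND8 against control. They moved the higher share of all calls from 58.1% to 78.0% for transient doxorubicin, 56.5% to 73.8% for labelled ZMYND8 against control, 50.4% to 68.1% and 50.6% to 66.9% at 48 h in GFP and ZMYND8 cells, 53.5% to 39.7% in ZMYND8 cells at 6 h and 58.8% to 32.2% for the 6 h interaction.

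Values that changed sign in another setting were as follows. NLRC5 was 0.01 for transient doxorubicin with total counts, and -0.01 for labelled ZMYND8 against control with DESeq2 size factors, DESeq2 and no filter. With no filter, the labelled libraries differed from doxorubicin by 0 in HLA-B and by -0.02 in B2M, B2M was -0.01 in GFP cells at 48 h, HLA-C was 0.03 in GFP and 0.01 in ZMYND8 cells at 6 h, and its 6 h interaction was -0.02. HLA-C was 0.02 in GFP cells at 6 h with only the conditions compared and 0 in ZMYND8 cells at 6 h with the replicate block. HLA-B was -0.02 in ZMYND8 cells at 6 h with total counts. The 6 h interaction of HLA-C was -0.06 with total counts and -0.01 with DESeq2 size factors, DESeq2 and only the conditions compared.

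Without each library in turn, the ranges of results that changed sign were, for transient doxorubicin, -0.27 to 0.59 in B2M and -0.40 to 0.06 in NLRC5, and for labelled ZMYND8 against control -0.09 to 0.50 in B2M and -0.13 to 0.14 in NLRC5. For labelled ZMYND8 against doxorubicin they were -0.40 to 0.67 in HLA-B, -0.35 to 0.50 in B2M and -0.06 to 0.40 in NLRC5. In GFP cells they were -0.29 to 0.01 in HLA-B and -0.16 to 0.11 in HLA-C at 6 h, and -0.04 to 0.28 in HLA-C and -0.09 to 0.09 in B2M at 48 h. In ZMYND8 cells at 6 h they were -0.03 to 0.03 in HLA-C and -0.18 to 0.02 in B2M, and between lines at 6 h -0.14 to 0.06 in B2M and -0.23 to 0.01 in NLRC5. For the 6 h interaction they were -0.11 to 0.16 in HLA-C and -0.01 to 0.18 in B2M, and for the 48 h interaction -0.05 to 0.25 in HLA-B and -0.14 to 0.08 in NLRC5.

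Same-numbered libraries deviated from their condition means with correlations of 0.208 to 0.404 (transient) and -0.0458 to 0.0216 (inducible). The labels tie the 2 numbers to no shared batch, so the fit without the block was kept, although all 3 transient pairs of conditions correlated above 0.1. With the replicate block, HLA-B passed for transient doxorubicin (0.89, adjusted p = 0.041 by edgeR) and for labelled ZMYND8 against control (0.97, adjusted p = 0.025), B2M between untreated lines did not (-0.12, adjusted p = 0.054), and no other call of these 4 members changed.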
